A study of Mus musculus with 10 samples.

Results

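The pre-osteoblast line MC3T3-E1, derived from mouse calvaria, was sequenced as it passed from proliferating culture to mineralizing osteoblasts, and 38 genes of antioxidant defence and glutathione metabolism were followed through the course. The genes were taken by name, by their role and not by a threshold on their values: the transcription factor gene Nfe2l2 and its inhibitor Keap1, the quinone and heme enzymes, the enzymes that make and recycle glutathione, the glutathione peroxidases and transferases, the peroxiredoxins and sulfiredoxin, the thioredoxin system, the superoxide dismutases with catalase, and 2 transport genes for selenium and ascorbate. The list was chosen with earlier results of these data known, so no test of the set as a whole was run. All 38 were found by Ensembl identifier among the 40620 genes of the count table. Of these, 37 passed the filter on low counts and were tested with 20808 genes in all. Mgst1, a microsomal glutathione transferase, held 0 to 5 counts per library and was not tested.

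Each of the 5 stages had 2 replicates, labelled A and B. Subconfluent cells and confluent cells (day 0) were kept in growth medium, αMEM with serum. Cells at 24 h, 14 d and 21 d had been moved at day 0 to differentiation medium, which added ascorbic acid and β-glycerophosphate. The labels list penicillin-streptomycin for the differentiation medium, and the study's methods list it for the growth medium too. The labels name no transgene or deletion, and the line as described by the study is 1 subclone, so every sample shares 1 genetic background. The labels do not say that replicates came from separate cultures, so the p-values measure the spread between these samples, which may be technical. Changes of medium and of time in culture go together from 24 h onwards and cannot be told apart.

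Libraries held 44736156 to 162939333 counts. Levels are given as RPKM, reads scaled to gene length and to the mapped reads of the library, in the order A then B. A gene was called where edgeR's quasi-likelihood test gave a Benjamini-Hochberg adjusted p under 0.05 over all genes tested and a difference of more than 2-fold. The 24 h pair stood apart: the SD of the log2 difference between A and B over genes was 0.67, against 0.28 to 0.32 at the other stages. Of the 10 osteoblast markers examined, 8 to 10 were above 1 RPKM at each stage. No adipocyte marker passed 1 RPKM, the summed endothelial markers stayed at or below 0.0558 RPKM, and the blood-defining Ptprc and Hbb-bs were listed at 0 throughout, although Csf1r, Lyz2 and Cd14 were above 1 RPKM at every stage, in a macrophage and blood list that summed to 15.5 to 21.7 RPKM. The chondrocyte markers Sox9 and Col2a1 were above 1 RPKM at every stage and Col10a1 at 21 d. The summed level of the 4 chondrocyte markers was 174 to 176 RPKM in subconfluent cells, 89.3 to 97.7 at confluence, 45.7 to 62.8 at 24 h, 234 to 241 at 14 d and 111 to 119 at 21 d. Of the 3 tested, 2 were called higher at 14 d against confluent cells, where 9.15% of all genes were. At 21 d against subconfluent cells 2 were called higher, where 16.3% of all genes were. The part of the chondrocyte markers in the results was not tested. The column names give the first 3 stages one pair of index sequences and the last 2 stages another, so stage and index set cannot be told apart in comparisons that cross from 24 h to 14 d. These include 21 d against subconfluent, 14 d against confluent, and any split of the 14 d and 21 d samples from all earlier samples.

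NRF2, the product of Nfe2l2, is a transcription factor that is held in the cytoplasm and marked for degradation by KEAP1. Oxidants and electrophiles modify KEAP1, NRF2 then gathers in the nucleus, pairs with a small MAF protein and binds antioxidant response elements in front of genes such as Nqo1, Hmox1, Gclc, Gclm, Txnrd1 and Srxn1. These genes feed 2 reducing systems. In one, glutathione serves peroxidases and transferases and is reduced again by glutathione reductase. In the other, thioredoxin is reduced by thioredoxin reductase and in turn regenerates the peroxiredoxins. Both draw on NADPH. Osteoblasts add a demand of their own, since collagen hydroxylation consumes ascorbate and protein folding in a secretory cell produces hydrogen peroxide.

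The letters of the element core, TGACNNNGC or its reverse complement GCNNNGTCA, were looked for in RefSeq promoter windows (GRCm38.p6) that run from 250 bases before a start site to 50 after it. A window was present for 32 of the 38 genes and absent for Gsta4, Sod3, Prdx6, Gsr, Gclc and Hmox1. The letters occurred in the windows of 7 of the 32 genes (21.9%), Gclm, Mgst1, Nfe2l2, Prdx1, Sod1, Srxn1 and Txnrd1, against 14.0% of all 27025 genes with a window. By window, 7 of 44 held them (15.9%), against 12.4% of all 32851. No match was found in the window of Nqo1, but bases outside the windows were not searched, so an element farther away would be missed. The 4 stretches shown are those upstream of Nfe2l2 itself and of 3 genes whose levels fell or stood at the edge of the threshold below, each 5′ to 3′ on the strand of the gene with the match in capitals. They lie at chr2:75704865-75704913 (minus strand) for Nfe2l2, chr3:122245393-122245461 (plus strand) for Gclm, chr10:82859084-82859152 (plus strand) for Txnrd1 and chr4:116685436-116685504 (plus strand) for Prdx1.
Nfe2l2: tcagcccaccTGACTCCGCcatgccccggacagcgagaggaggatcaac
Gclm: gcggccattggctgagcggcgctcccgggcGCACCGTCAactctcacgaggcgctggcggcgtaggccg
Txnrd1: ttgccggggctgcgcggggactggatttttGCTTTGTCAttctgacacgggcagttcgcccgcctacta
Prdx1: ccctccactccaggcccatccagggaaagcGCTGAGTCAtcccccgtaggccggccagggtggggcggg
The match began 240 bases before the start site in Nfe2l2, 134 in Gclm, 92 in 1 of the 3 windows of Txnrd1, and 133 in Prdx1, where the capitals also contain TGAGTCA, the letters of an AP-1 site. The search is a match of letters, not evidence of binding.

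Between subconfluent cells and 21 d of differentiation, 11 of the 37 tested genes passed the call (29.7%), against 27.6% of all genes. Higher at 21 d were 5, Gpx3, Gstm1, Sod3, Selenop and Slc23a2 (13.5%, against 16.3% of all genes). Lower were 6, Nqo1, Gclc, Gclm, Txn1, Txnrd1 and Srxn1 (16.2%, against 11.3%). Gpx3 is counted among the higher genes although it held 6 and 2 counts in subconfluent cells. It passed the filter on low counts through later stages, where it was higher. With any fold change allowed, 7 were higher and 17 lower at adjusted p under 0.05, where 27.3% and 23.5% of all genes were. The median log2 fold change of the 37 genes was -0.38, beside 0.04 for all genes tested.

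Between confluent cells and 14 d, 10 of the 37 genes were called (27.0%), against 13% of all genes. Gpx3, Sod3, Selenop and Slc23a2 were higher (10.8%, against 9.15%), and Nqo1, Hmox1, Gsta4, Gstt1, Txn1 and Txnrd1 were lower (16.2%, against 3.85%). Gpx3 is counted with the same limit, at 4 and 12 counts in confluent cells. At any fold, 5 were higher and 12 lower, with 16.9% and 15.3% of all genes. The median was -0.26, beside 0.03 for all genes. The test of any difference among the 5 stages was passed by 24 of the 37 genes (64.9%), against 48.9% of all genes. That count depended on the setting: it was 30 without the 24 h samples, 30 by DESeq2 and 22 with at least 10 counts required in every sample. Without the 24 h samples, the calls were 12 at 21 d against subconfluent and 10 at 14 d against confluent. Fewer cells of a type and less RNA per cell cannot be told apart in these bulk samples.

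**Figure D1:**
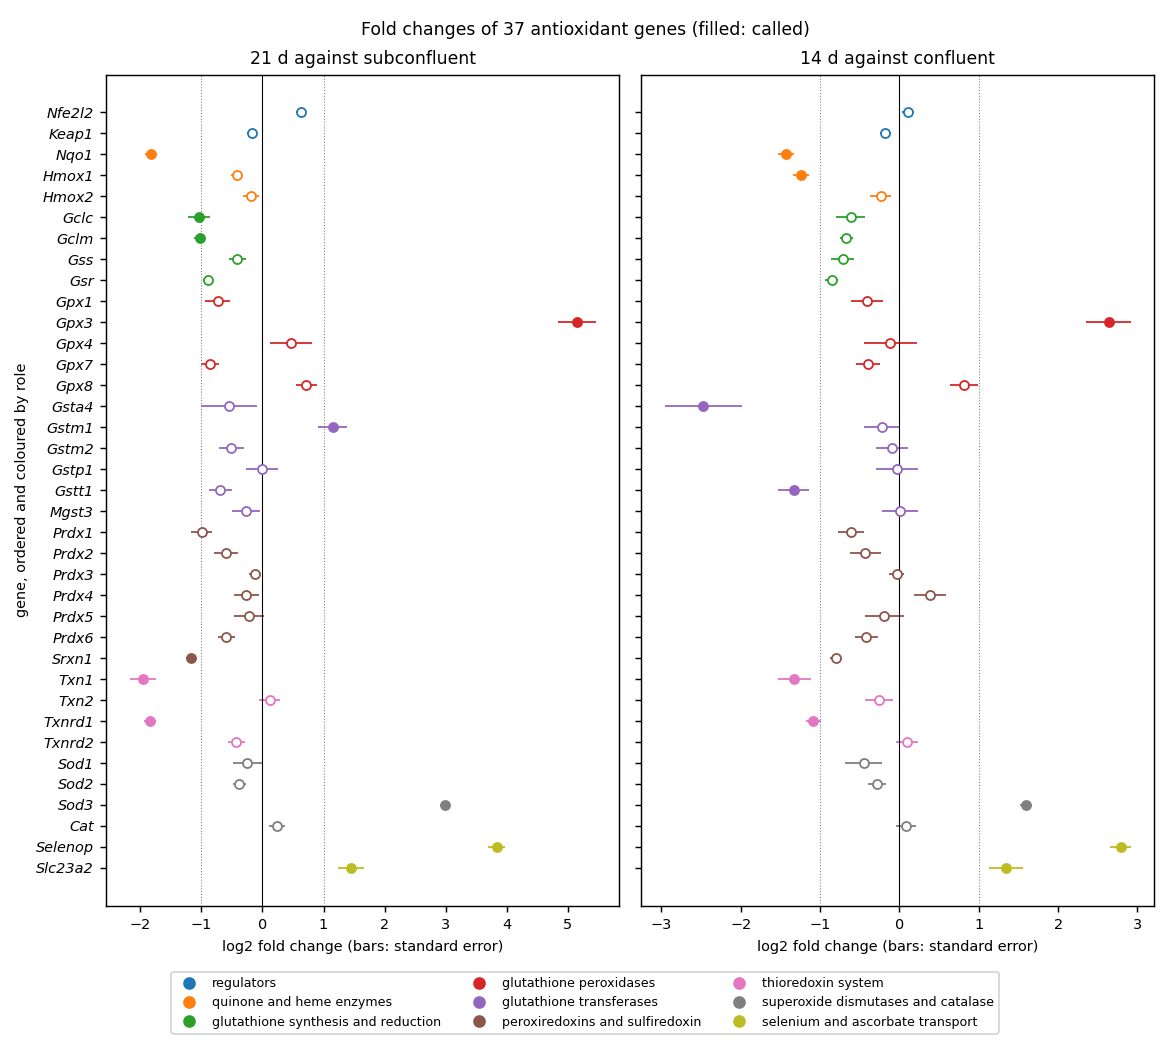
Log2 fold change of the 37 tested genes (x axis) at 21 d against subconfluent cells and at 14 d against confluent cells, ordered and coloured by role, with bars of 1 SE and dotted lines at 2-fold. Filled points were called: 5 higher and 6 lower in the left panel, 4 higher and 6 lower in the right, with Gpx3, Sod3 and Selenop farthest to the right in both.

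Neither regulator was called in any comparison, although Nfe2l2 was higher at 21 d by less than 2-fold. Nfe2l2 stood at 19.8 and 19.3 RPKM in subconfluent cells, 19.4 and 18.6 at confluence, 17.2 and 20.2 at 24 h, 17.8 and 17.5 at 14 d, and 28.7 and 27.0 at 21 d. Both 21 d samples were above the other 8, which spanned 17.2 to 20.2 RPKM, and the difference passed the test without reaching 2-fold, against subconfluent cells (log2 fold change 0.63, SE 0.08, adjusted p = 4.81e-04) and against 14 d (log2 fold change 0.59, SE 0.08, adjusted p = 0.00403). Keap1 stood at 15.2 and 15.7 RPKM in subconfluent cells, 17.0 and 16.9 at confluence, 13.4 and 14.6 at 24 h, 13.2 and 12.5 at 14 d, and 13.1 and 12.2 at 21 d. At 21 d its samples were below both subconfluent samples, but the difference did not pass (log2 fold change -0.18, SE 0.07, adjusted p = 0.0742).

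Nqo1, the quinone reductase commonly read as a marker of NRF2 activity, had one of the deepest falls. Its level was 25.1 and 28.2 RPKM in subconfluent cells, 16.3 and 16.4 at confluence, 10.7 and 10.5 at 24 h, 5.54 and 4.88 at 14 d, and 6.83 and 7.01 at 21 d. Each pair lay below the pair of the stage before as far as 14 d, with no overlap, and the 21 d pair lay between those of 24 h and 14 d. The fall was 3.55-fold at 21 d against subconfluent cells (log2 fold change -1.83, SE 0.10, adjusted p = 1.36e-05) and 2.69-fold at 14 d against confluent cells (log2 fold change -1.43, SE 0.10, adjusted p = 1.20e-04).

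Hmox1, the inducible heme oxygenase that turns heme into biliverdin, carbon monoxide and iron, was also lowest at 14 d but was higher again at 21 d. Its level was 51.5 and 51.3 RPKM in subconfluent cells, 41.2 and 40.9 at confluence, 25.9 and 23.9 at 24 h, 16.0 and 13.9 at 14 d, and 36.5 and 34.6 at 21 d. It fell 2.36-fold from confluence to 14 d (log2 fold change -1.24, SE 0.10, adjusted p = 1.94e-04) and rose 2.26-fold from 14 d to 21 d (log2 fold change 1.18, SE 0.10, adjusted p = 7.27e-04). The 21 d pair lay between the confluent and 24 h pairs, and against subconfluent cells the remaining difference was under 2-fold (log2 fold change -0.41, SE 0.10, adjusted p = 0.0100). Of the 37 genes, Hmox1 and Gpx3 were called at this last step, which lies within 1 index set. Hmox2, the constitutive enzyme, was between 13.5 and 19.2 RPKM in the 10 samples, with no comparison called. Its count is uncertain, since 40.2% of its exon bases overlap Cdip1 on the opposite strand and strandedness of the counting is not given in the sources used here.

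The genes of glutathione synthesis and reduction were lower after differentiation: at 21 d against subconfluent cells all 4 genes were lower at adjusted p under 0.05, 2 of them by more than 2-fold, where 23.5% and 11.3% of all genes were. Gclc encodes the catalytic subunit of glutamate-cysteine ligase, the enzyme of the committed step. It stood at 22.2 and 20.9 RPKM in subconfluent cells, 18.1 and 16.0 at confluence, 12.6 and 20.8 at 24 h, 10.0 and 9.10 at 14 d, and 9.44 and 9.86 at 21 d. Gclm, the modifier subunit, stood at 16.3 and 15.9 RPKM in subconfluent cells, 12.4 and 11.4 at confluence, 7.63 and 9.10 at 24 h, 6.67 and 6.16 at 14 d, and 7.37 and 7.17 at 21 d. For both, the 14 d and 21 d samples were below every earlier sample, while the 24 h samples of Gclc lay on either side of the confluent pair. At 21 d both subunits were just past the threshold, 2.06-fold lower for Gclc (log2 fold change -1.04, SE 0.19, adjusted p = 0.00270) and 2.04-fold lower for Gclm (log2 fold change -1.03, SE 0.09, adjusted p = 6.60e-05). Neither passed 2-fold with upper-quartile scaling, where the log2 fold changes were -0.91 and -0.90. Gclm shares 3.87% of its 51-base windows with other genes, most with Ppia, and overlaps the far more abundantly counted Gm17494 on the opposite strand over 4.71% of its exon bases.

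Gss, glutathione synthetase, was measured at 12.1 and 12.9 RPKM in subconfluent cells, 14.0 and 17.9 at confluence, 13.7 and 12.1 at 24 h, 8.83 and 7.95 at 14 d, and 8.41 and 8.92 at 21 d. Gsr, the reductase that returns oxidized glutathione to its thiol form at the expense of NADPH, was at 34.2 and 33.6 RPKM in subconfluent cells, 35.8 and 34.3 at confluence, 26.7 and 26.0 at 24 h, 17.0 and 16.4 at 14 d, and 17.4 and 16.2 at 21 d. Each was lower in all 4 samples of 14 d and 21 d than in the other 6. The differences stayed under 2-fold for Gsr (log2 fold change -0.90, SE 0.08, adjusted p = 9.63e-05 at 21 d against subconfluent, and log2 fold change -0.85, SE 0.08, adjusted p = 3.73e-04 at 14 d against confluent) and for Gss (log2 fold change -0.41, SE 0.14, adjusted p = 0.0458, and log2 fold change -0.71, SE 0.14, adjusted p = 0.00868, in the same order).

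As a measured fact beside all of these falls, the summed level of 5 proliferation markers (Mki67, Top2a, Ccnb1, Cdk1 and Mcm5) was 333 to 337 RPKM in subconfluent cells, 247 to 263 at confluence, 158 to 177 at 24 h, 110.2 to 118 at 14 d and 27.4 to 37.4 at 21 d. All 5 were lower at 21 d than in subconfluent cells and were above 1 RPKM at every stage. The part of proliferation in these falls was not tested.

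**Figure D2:**
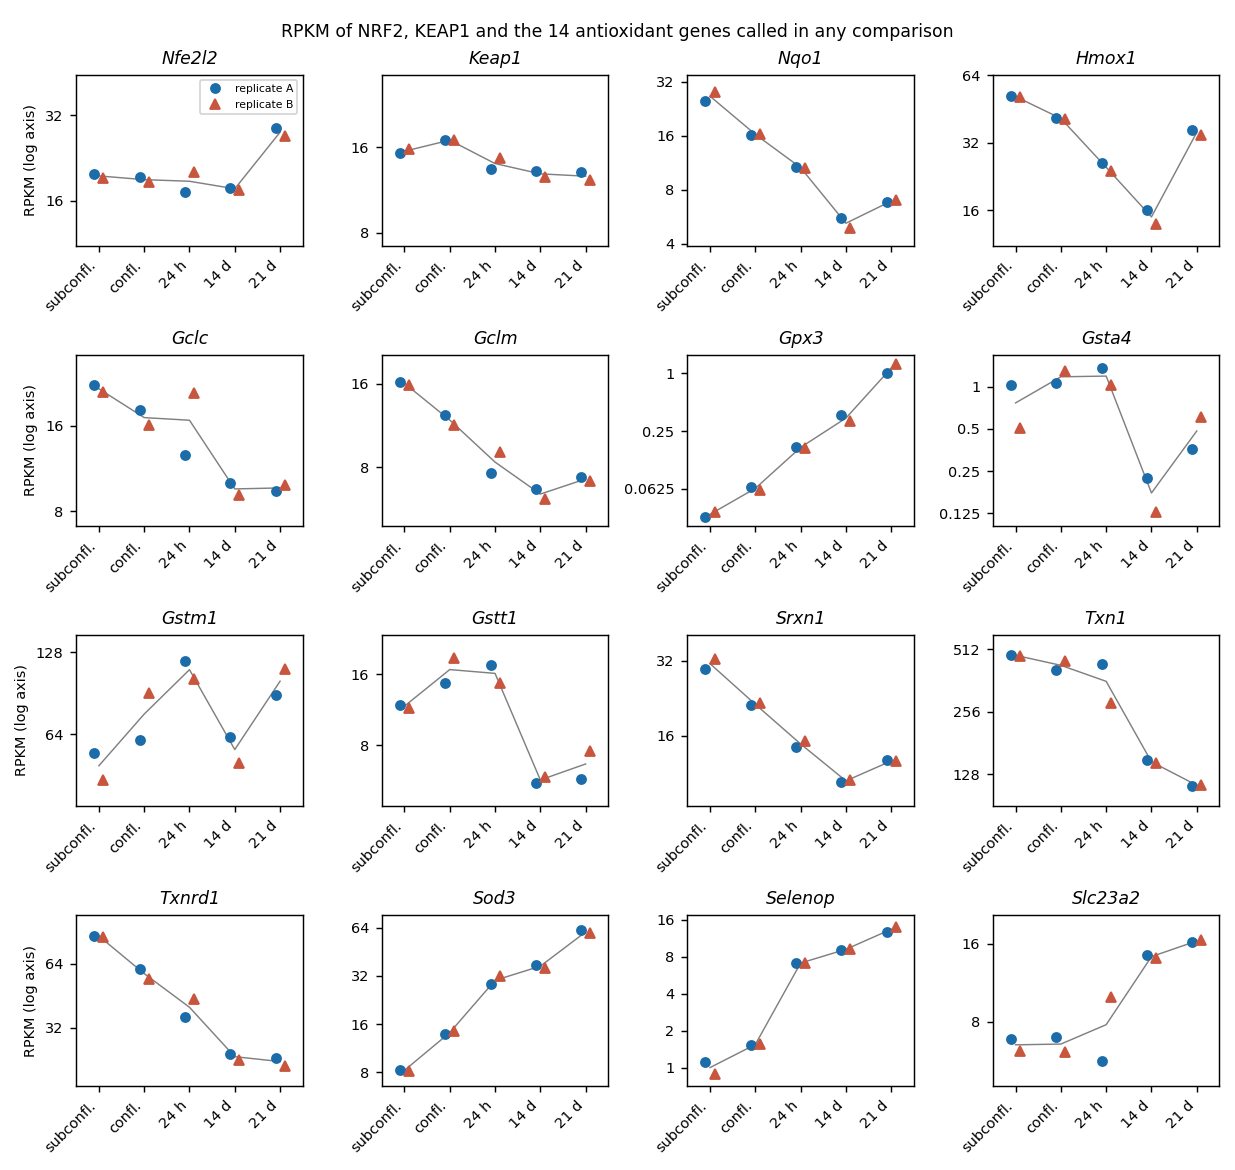
RPKM (log axis, scaled per panel) by stage for Nfe2l2, Keap1 and the 14 genes called in at least 1 comparison, with circles for replicate A, triangles for replicate B and a line through the stage means. Nqo1, Gclm, Srxn1 and Txnrd1 descend from subconfluent cells to 14 d, Hmox1 returns at 21 d, and the points of Gpx3, Sod3 and Selenop go up from stage to stage.

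The glutathione peroxidases differed in direction, with Gpx3 and Gpx8 higher and Gpx1 and Gpx7 lower at 21 d. Gpx3, the extracellular plasma peroxidase, was scarce, and its values went up from stage to stage: 0.0323 and 0.0357 RPKM in subconfluent cells, 0.0651 and 0.0615 at confluence, 0.169 and 0.168 at 24 h, 0.363 and 0.319 at 14 d, and 1.01 and 1.25 at 21 d. The pairs did not overlap at any step. In subconfluent cells the values rested on 6 and 2 counts and at 21 d on 64 and 180, and the log2 fold change of 5.15 (SE 0.32, adjusted p = 1.88e-05) is accordingly imprecise at its base. Gpx3 was also called at 14 d against confluent cells (log2 fold change 2.64, SE 0.28, adjusted p = 6.52e-04) and at each of the 3 single steps from confluence on. The step calls were not stable: that of 24 h against confluent was lost in 14 of 20 alternatives (adjusted p up to 0.445), that of 14 d against 24 h in 11 of 20 (up to 0.235) and that of 21 d against 14 d in 4 of 21 (up to 0.0817). Gpx3 left the test where at least 10 counts were required in every sample.

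Gpx8, a peroxidase of the endoplasmic reticulum, was abundant and higher after differentiation: 87.8 and 87.0 RPKM in subconfluent cells, 88.5 and 118 at confluence, 129 and 104 at 24 h, 152 and 159 at 14 d, and 127 and 139 at 21 d. Both 14 d samples and both 21 d samples were above the subconfluent and confluent pairs, and the difference passed the test below 2-fold (log2 fold change 0.72, SE 0.17, adjusted p = 0.0113 at 21 d against subconfluent, log2 fold change 0.81, SE 0.17, adjusted p = 0.0115 at 14 d against confluent). Gpx7, its relative in the same compartment, was at 59.7 and 64.9 RPKM in subconfluent cells, 70.1 and 71.6 at confluence, 81.4 and 62.0 at 24 h, 46.9 and 45.6 at 14 d, and 31.3 and 31.8 at 21 d. The 21 d pair of Gpx7 was the lowest of all, 1.82-fold below subconfluent cells (log2 fold change -0.86, SE 0.15, adjusted p = 0.00240) and below 14 d (log2 fold change -0.63, SE 0.15, adjusted p = 0.0418).

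Gpx1, the cytosolic enzyme that reduces hydrogen peroxide and is often the most abundant member, was at 201 and 219 RPKM in subconfluent cells, 177 and 199 at confluence, 245 and 165 at 24 h, 122 and 122 at 14 d, and 115 and 117 at 21 d. Its 14 d and 21 d samples were below the other 6, with a difference at 21 d under 2-fold (log2 fold change -0.74, SE 0.20, adjusted p = 0.0177). Gpx4, which reduces phospholipid hydroperoxides and guards membranes, was at 69.4 and 71.4 RPKM in subconfluent cells, 64.2 and 121 at confluence, 104 and 62.0 at 24 h, 75.4 and 72.2 at 14 d, and 84.5 and 95.0 at 21 d. The pairs at confluence and 24 h were far apart, and no comparison passed (log2 fold change 0.47, SE 0.34, adjusted p = 0.288 at 21 d). Of the 51-base windows of Gpx4, 34.5% occur in another gene, most in the pseudogene Gpx4-ps2, so its count is uncertain.

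Per length, the make-up of the 5 measured peroxidases also differed between stages. Their summed level was 430.2 RPKM in subconfluent cells and 372 at 21 d. Gpx1 made up 48.8% ± 1.06 (SD, n = 2) of it in subconfluent cells and 31.4% ± 1.09 at 21 d. Gpx8 went from 20.3% ± 0.973 to 35.7% ± 0.522, by way of 39.1% ± 1.11 at 14 d, and became the leading member. Gpx4 went from 16.4% to 24.1% and Gpx7 from 14.5% to 8.50%. Gpx3 stayed at 0.303% or less. These shares are descriptions, since 2 samples against 2 cannot reach an exact permutation p under 0.05.

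Among the glutathione transferases, which join glutathione to electrophiles, Gstp1 dominated without passing any comparison. It stood at 421 and 402 RPKM in subconfluent cells, 436 and 463 at confluence, 774 and 427 at 24 h, 386 and 372 at 14 d, and 374 and 379.9 at 21 d. The 24 h replicates differed most, with A above and B within the range of the other stages, and the log2 fold change at 21 d against subconfluent cells was -0.01 (SE 0.26). Gstp1 held 75.8% of the summed level of the 7 transferases in subconfluent cells and 71.1% at 21 d. With 33.5% of its windows also in other genes, Gstp2 foremost, its count is uncertain.

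Gstm1, of the mu class, was at 54.4 and 43.5 RPKM in subconfluent cells, 61.0 and 90.6 at confluence, 119 and 102 at 24 h, 62.2 and 50.1 at 14 d, and 89.1 and 111 at 21 d. It was 2.22-fold higher at 21 d than in subconfluent cells (log2 fold change 1.15, SE 0.23, adjusted p = 0.00513), with both 21 d samples above both subconfluent samples, but the course was not steady, and the 14 d pair lay below the 24 h pair (log2 fold change -0.85, SE 0.23, adjusted p = 0.0448). The call at 21 d was lost without subconfluent replicate B (log2 fold change 0.96, adjusted p = 0.0552), without 21 d replicate B (0.97) and with library size alone as the scale (0.99). Other genes hold 18.5% of its windows. Gstm2 was at 59.1 and 58.5 RPKM in subconfluent cells, 47.7 and 67.2 at confluence, 63.9 and 72.8 at 24 h, 55.5 and 37.6 at 14 d, and 37.1 and 38.9 at 21 d, with no comparison passed. In 2 libraries the deposited count of Gstm2 was not the sum of its sequencing lanes: it was 1.32 times that sum in 14 d replicate A and 0.748 times in 21 d replicate B. For Gstm1 it was 1.11 and 1.02 times the sum in the same libraries. Per total count of the lane, Gstm1 was 1.30 and 1.44 times higher in the first lane than in the second.

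Gstt1, the theta-class transferase, dropped between 24 h and 14 d. Its level was 11.9 and 11.5 RPKM in subconfluent cells, 14.7 and 18.7 at confluence, 17.5 and 14.7 at 24 h, 5.53 and 5.87 at 14 d, and 5.78 and 7.55 at 21 d. All 4 samples at 14 d and 21 d were below the other 6, and the fall was called from confluence to 14 d (log2 fold change -1.34, SE 0.19, adjusted p = 0.00205) and from 24 h to 14 d (log2 fold change -1.38, SE 0.19, adjusted p = 0.00439). Gsta4, an alpha-class enzyme that conjugates the lipid peroxidation product 4-hydroxynonenal, showed a larger fall at a far lower level: 1.02 and 0.509 RPKM in subconfluent cells, 1.05 and 1.30 at confluence, 1.35 and 1.03 at 24 h, 0.222 and 0.128 at 14 d, and 0.361 and 0.605 at 21 d. Both 14 d samples were the lowest of the 10, and the falls to 14 d were called (log2 fold change -2.47, SE 0.49, adjusted p = 0.00790 against confluent, log2 fold change -2.58, SE 0.49, adjusted p = 0.0133 against 24 h). These 14 d values rest on 19 and 4 counts. In replicate A they came as 4 counts in one lane and 15 in the other, and at 21 d replicate B as 45 and 1, so the level of Gsta4 is loosely fixed. Without 14 d replicate B the fall from confluence was not called (log2 fold change -2.20, adjusted p = 0.0589). Mgst3, a microsomal enzyme, was between 8.22 and 15.5 RPKM, with no comparison passed.

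**Figure D3:**
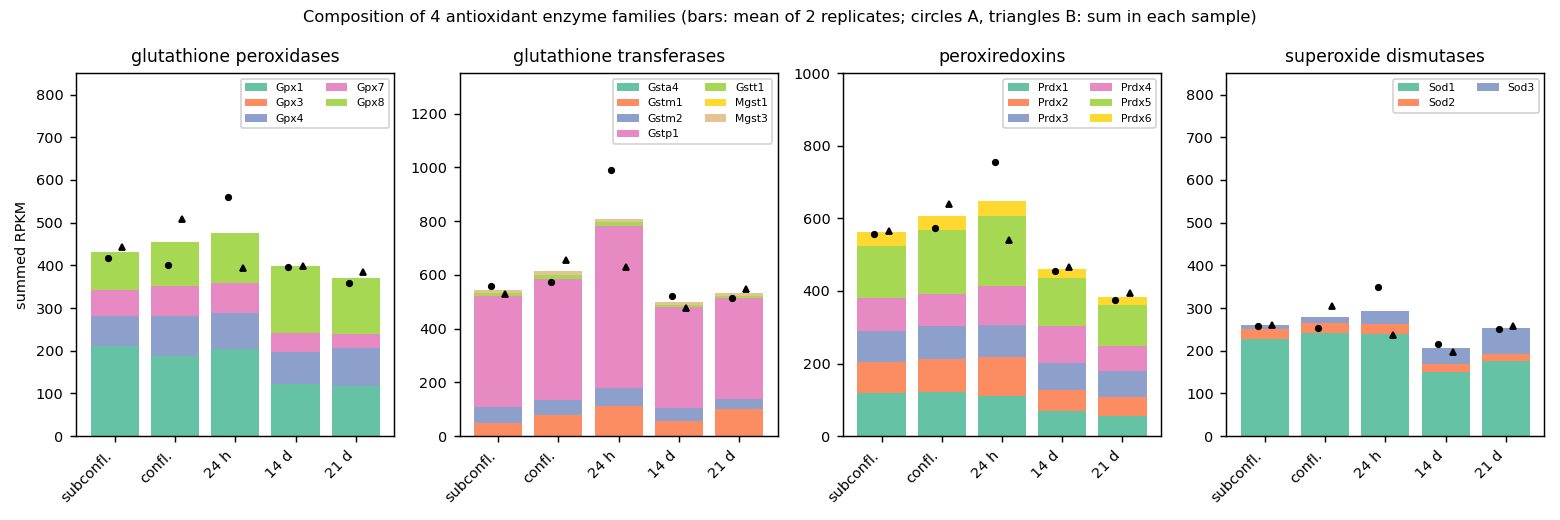
Summed RPKM (y axis, from 0) of the measured glutathione peroxidases, glutathione transferases, peroxiredoxins and superoxide dismutases at the 5 stages, stacked by gene as the mean of 2 replicates, with the sums of single samples as circles (A) and triangles (B). Gpx8 takes up a larger part of the peroxidases, and Sod3 of the superoxide dismutases, at 14 d and 21 d than in subconfluent cells, and the 24 h replicates differ most in all 4 families.

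The peroxiredoxins, thiol peroxidases that scavenge hydrogen peroxide, were lower in sum after differentiation, 557 and 566 RPKM in subconfluent cells and 375 and 393 at 21 d. None of the 6 was called. Prdx1 came nearest, at 119.8 and 118 RPKM in subconfluent cells, 116 and 125 at confluence, 128 and 94.6 at 24 h, 67.3 and 68.7 at 14 d, and 56.6 and 53.4 at 21 d. Its 14 d and 21 d samples were below all others, and the difference at 21 d stopped just short of 2-fold (log2 fold change -0.999, SE 0.17, adjusted p = 0.00202). In 16 of 22 alternative settings it was called, with 8.06% of its windows shared with other genes.

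Prdx2, its cytosolic partner, was at 85.2 and 87.3 RPKM in subconfluent cells, 90.0 and 95.6 at confluence, 127 and 85.7 at 24 h, 60.1 and 58.5 at 14 d, and 52.2 and 52.8 at 21 d. Prdx6, which uses glutathione rather than thioredoxin, was at 36.6 and 37.2 RPKM in subconfluent cells, 39.5 and 39.4 at confluence, 46.5 and 36.1 at 24 h, 25.9 and 24.8 at 14 d, and 23.6 and 21.6 at 21 d. Both were lower at 21 d below 2-fold (log2 fold change -0.60, SE 0.19, adjusted p = 0.0337, and log2 fold change -0.59, SE 0.14, adjusted p = 0.0115). The mitochondrial Prdx3 was between 68.5 and 91.7 RPKM in the 10 samples, Prdx4 of the endoplasmic reticulum between 64.7 and 129, and Prdx5 between 104 and 233, and none of the 3 passed any comparison. Prdx5 overlaps Trmt112 on the opposite strand over 19.1% of its exon bases. The share of Prdx1 in the family went from 21.2% to 14.3% and that of Prdx5 from 25.6% to 29.5%.

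Srxn1, sulfiredoxin, which repairs overoxidized peroxiredoxins, fell 2.26-fold from subconfluent cells to 21 d (log2 fold change -1.18, SE 0.08, adjusted p = 2.27e-05). Its level was 29.8 and 32.5 RPKM in subconfluent cells, 21.2 and 21.6 at confluence, 14.4 and 15.3 at 24 h, 10.5 and 10.7 at 14 d, and 12.8 and 12.6 at 21 d. No pair overlapped the next, and as with Nqo1 the 14 d pair was the lowest. None of the 51-base windows of Srxn1 or Nqo1 occurs in another gene.

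The cytosolic thioredoxin pair fell together, while their mitochondrial counterparts passed no call. Txn1, thioredoxin, was the most abundant of the 38 genes in subconfluent cells: 480.5 and 477 RPKM in subconfluent cells, 407 and 450.2 at confluence, 434 and 283 at 24 h, 149 and 145 at 14 d, and 113 and 114 at 21 d. The 14 d and 21 d samples were far below the other 6. The fall was 3.89-fold at 21 d against subconfluent cells (log2 fold change -1.96, SE 0.21, adjusted p = 2.39e-04) and 2.51-fold at 14 d against confluent cells (log2 fold change -1.33, SE 0.21, adjusted p = 0.00313). At 24 h replicate A was near the confluent level and replicate B well under it, and without 24 h replicate A the step from 24 h to 14 d was -0.77 in place of -1.17 on the log2 scale.

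Txnrd1, the cytosolic thioredoxin reductase, a selenoprotein that uses NADPH, was at 86.9 and 85.9 RPKM in subconfluent cells, 60.7 and 54.4 at confluence, 36.1 and 43.7 at 24 h, 24.1 and 22.6 at 14 d, and 23.1 and 21.2 at 21 d. Stage means declined at every step, as they did for Txn1 and for no other gene of the 38, and the pairs stayed apart until 14 d and 21 d, which overlapped. It fell 3.60-fold at 21 d (log2 fold change -1.85, SE 0.10, adjusted p = 1.26e-05) and 2.12-fold at 14 d against confluent cells (log2 fold change -1.08, SE 0.10, adjusted p = 3.35e-04). The mitochondrial Txn2 was at 24.7 and 28.9 RPKM in subconfluent cells, 31.2 and 42.6 at confluence, 40.2 and 34.8 at 24 h, 27.5 and 25.7 at 14 d, and 25.7 and 27.9 at 21 d, with a log2 fold change of 0.12 at 21 d (adjusted p = 0.608). Its reductase Txnrd2, between 3.19 and 5.57 RPKM, was lower at 21 d below 2-fold (log2 fold change -0.43, SE 0.14, adjusted p = 0.0379). Whether the cytosolic and mitochondrial genes differ in their response was not tested.

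Of the superoxide dismutases, which turn superoxide into hydrogen peroxide, the extracellular one alone was called. The values of Sod3 went up with each stage: 8.26 and 8.19 RPKM in subconfluent cells, 13.8 and 14.5 at confluence, 28.3 and 31.8 at 24 h, 37.6 and 36.1 at 14 d, and 61.6 and 59.0 at 21 d. No pair overlapped another. It rose 7.95-fold from subconfluent cells to 21 d (log2 fold change 2.99, SE 0.08, adjusted p = 2.01e-06), 3.02-fold from confluence to 14 d (log2 fold change 1.60, SE 0.07, adjusted p = 2.58e-05) and 2.26-fold within the first 24 h of differentiation medium (log2 fold change 1.17, SE 0.07, adjusted p = 5.72e-04). The 24 h rise was not called in an edgeR fit of those 2 stages alone (adjusted p = 0.185). Per length, Sod3 went from 3.17% ± 0.0316 (SD, n = 2) of the summed dismutases to 23.8% ± 1.22, while the sum went from 259 to 254 RPKM.

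Sod1, the cytosolic copper-zinc enzyme, was at 228 and 227 RPKM in subconfluent cells, 215 and 266 at confluence, 295 and 182 at 24 h, 160.3 and 142 at 14 d, and 171 and 183 at 21 d. It passed no comparison (log2 fold change -0.25, SE 0.24, adjusted p = 0.427 at 21 d), and its share went from 87.7% to 69.6%. The mitochondrial manganese enzyme Sod2 was at 22.7 and 24.5 RPKM in subconfluent cells, 25.6 and 24.8 at confluence, 24.9 and 21.9 at 24 h, 17.7 and 17.9 at 14 d, and 17.6 and 15.9 at 21 d. It was slightly lower at 21 d (log2 fold change -0.38, SE 0.11, adjusted p = 0.0249), with 20.8% of its windows held by other genes. Cat, catalase, which breaks down hydrogen peroxide in peroxisomes, was between 18.2 and 31.7 RPKM and passed no comparison. Its lowest sample was 24 h replicate A.

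Selenop encodes the secreted carrier that delivers selenium to tissues for selenoproteins such as the glutathione peroxidases and thioredoxin reductases. It was at 1.12 and 0.887 RPKM in subconfluent cells, 1.52 and 1.57 at confluence, 7.12 and 7.11 at 24 h, 9.10 and 9.29 at 14 d, and 12.8 and 14.0 at 21 d. Each pair lay above the pair of the stage before, and the largest step came within 24 h, when it rose 4.89-fold (log2 fold change 2.29, SE 0.13, adjusted p = 4.64e-04). That 24 h rise was not called in an edgeR fit of confluent and 24 h samples alone (adjusted p = 0.0922). By 21 d Selenop was 14.3-fold above subconfluent cells (log2 fold change 3.84, SE 0.14, adjusted p = 3.26e-06). Ccdc152, which overlaps 15.4% of its exon bases on the opposite strand, averaged 11.0 counts per library and Selenop 1198.

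Slc23a2, the sodium-dependent vitamin C transporter SVCT2 that brings ascorbate into cells, was at 6.89 and 6.15 RPKM in subconfluent cells, 7.02 and 6.11 at confluence, 5.64 and 9.96 at 24 h, 14.5 and 14.1 at 14 d, and 16.3 and 16.6 at 21 d. The 14 d and 21 d samples were above all others. It rose 2.53-fold from confluence to 14 d (log2 fold change 1.34, SE 0.21, adjusted p = 0.00313) and 2.73-fold from subconfluent cells to 21 d (log2 fold change 1.45, SE 0.21, adjusted p = 0.00105). The 24 h replicates lay on either side of the confluent pair, and without 24 h replicate A the step from 24 h to 14 d was 0.70 on the log2 scale in place of 1.01, below the call. The call of this step was lost in 10 of 21 alternatives, among them library size alone, no filter and limma on RPKM.

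Step by step, the first falls came before differentiation medium was added. From subconfluent to confluent cells none of the 37 genes was called by edgeR (DESeq2 also 0, background 1.43%), although 10 had an unadjusted p under 0.05. At any fold 4 were lower, Nqo1 (-0.73), Txnrd1 (-0.61), Srxn1 (-0.57) and Gclm (-0.47), against 1.34% of all genes (0.423% by more than 2-fold, and 1% higher by more than 2-fold), and 1 was higher, Sod3 (0.76), against 1.95%. Hmox1 (-0.35, adjusted p = 0.117) and Gclc (-0.36, adjusted p = 0.378) did not pass at this step. Of the 20 tested other NRF2 target genes, 2 were higher and 2 lower at any fold, with a median of -0.03. From confluence to 24 h, 3 were called, Gpx3, Sod3 and Selenop, all higher (8.11%, against 2.13% of all genes, 1.76% higher and 0.365% lower). At any fold the same 3 were higher, against 3.59% of all genes, and Nqo1 (-0.53), Hmox1 (-0.63), Srxn1 (-0.44), Txnrd1 (-0.44) and Gclm (-0.42) were lower, against 1.57% of all genes. In an edgeR fit of the 4 samples of these 2 stages alone, none was called, with adjusted p = 0.185 for Sod3 and 0.0922 for Selenop. The fit of all samples carries the call of Gpx3 with adjusted p = 0.0284. Gpx3 held 4 and 12 counts at confluence.

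From 24 h to 14 d, 5 were called, Gpx3 and Slc23a2 higher and Gsta4, Gstt1 and Txn1 lower (13.5%, against 5.98% of all genes, 4.47% higher and 1.51% lower). At any fold 13 were lower and 4 higher, with 8.21% and 9.08% of all genes. This is the step that crosses the index sets and rests on the 24 h pair, and the number called ranged from 1 to 9 as single samples were left out, 9 without 24 h replicate B and 1 without either 14 d replicate. From 14 d to 21 d, 2 were called, Hmox1 and Gpx3, both higher (5.41%, against 3.97% of all genes, 1.52% higher and 2.45% lower). At any fold Nfe2l2 and Sod3 were higher too and Gpx7 was lower, with 3.77% and 5.95% of all genes. Without either 14 d replicate, or without 21 d replicate B, 1 remained. The steps share samples with each other and with the longer comparisons, so their values are not independent.

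**Figure D4:**
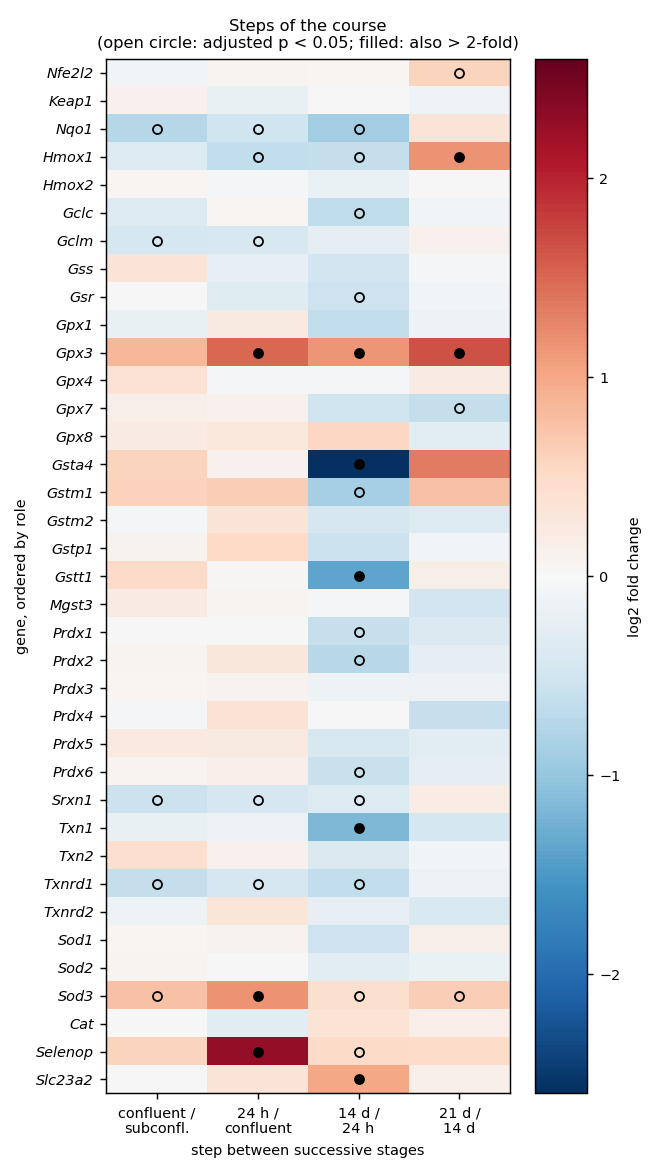
Log2 fold change (colour) of the 37 tested genes at the 4 steps between successive stages, ordered by role, with an open circle where adjusted p was under 0.05 and a filled circle where the difference also passed 2-fold. Nqo1, Gclm, Srxn1 and Txnrd1 carry circles on the falling side at the first 2 steps, and Hmox1 turns from blue to red at the last step.

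At 24 h, 16 of the 37 genes differed between A and B by more than 1.25 times in RPKM, 13 of them higher in A, against 8 at confluence and 2 at each other stage. The 3 higher in B were Cat, Gclc and Slc23a2. Among the 13 higher in A were short genes such as Sod1 and Gstp1 and also Prdx6, which is longer than Gclc. Over 16133 genes of all kinds, Spearman's rho between the log2 ratio of A to B and gene length was -0.41 at 24 h, 0.29 in subconfluent cells, 0.34 at confluence, 0.10 at 14 d and 0.16 at 21 d, a description across genes that share their libraries. The median log2 ratio at 24 h was 0.12 for lengths under 1000 bases and -0.55 over 4000 bases.

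**Figure D5:**
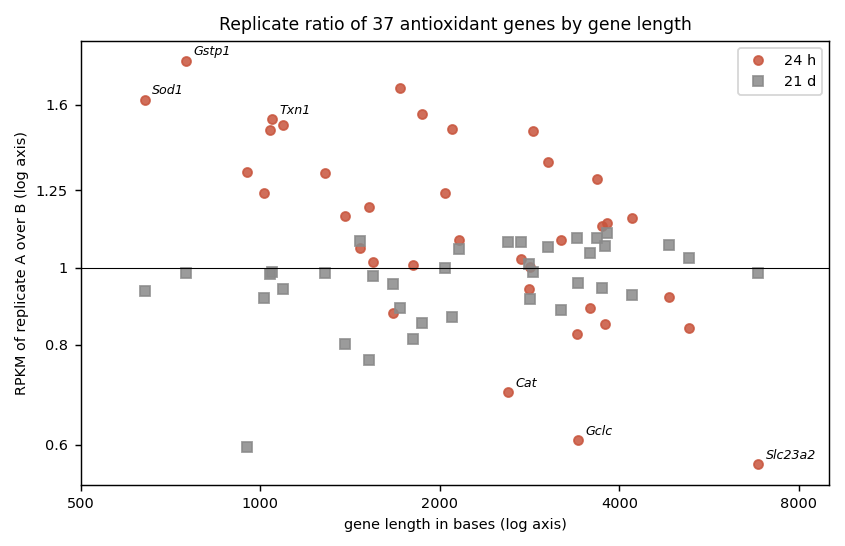
Ratio of replicate A to replicate B in RPKM (y axis, log) against gene length in bases (x axis, log) for the 37 tested genes, at 24 h (circles) and 21 d (squares). At 24 h 13 genes lie above 1.25 and 3 below 0.8, and at 21 d 2 genes lie outside that range.

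The wider pathway was read from gene lists, at 21 d against subconfluent cells, where 16.3% of all genes were called higher and 11.3% lower with a median log2 fold change of 0.04. Of 17 tested partners and regulators of NRF2, 4 were called higher and 1 lower (median 0.02). Bach2, a repressor that competes with NRF2 for its elements, had a log2 fold change of 3.26 (adjusted p = 2.80e-05), and Sqstm1, the p62 adaptor that draws KEAP1 into autophagy, of 1.25 (adjusted p = 4.83e-05). Bach2 was scarce, at 0.271 and 0.193 RPKM in subconfluent cells and 2.17 and 1.97 at 21 d. The stress-responsive factors Foxo3, at 1.34 (adjusted p = 1.28e-04), and Foxo4, at 1.17 (adjusted p = 5.37e-05), were higher too. Of 20 tested other NRF2 target genes, 3 were higher and 5 lower (median -0.15). Slc7a11, the cystine importer that supplies glutathione synthesis, fell, at -2.21 (adjusted p = 1.65e-05) on the log2 scale, as did the prostaglandin and leukotriene reductase Ptgr1, at -1.68 (adjusted p = 1.19e-04), whereas aldehyde oxidase Aox1 rose, at 2.29 (adjusted p = 1.55e-04). Ugt1a6a was at 3.45 (adjusted p = 6.49e-05), with an uncertain count because the Ugt1a genes share exons.

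Of 26 tested genes of cystine, cysteine and glutathione handling, which include Gclc, Gclm, Gss and Gsr, 6 were called higher and 5 lower (median -0.03). Cdo1, which commits cysteine to oxidation, had a log2 fold change of 3.67 (adjusted p = 1.11e-05), Chac1, which degrades glutathione, of 1.16 (adjusted p = 5.34e-04), and Slc3a2, the heavy chain that partners Slc7a11 and other amino acid transporters, of 1.12 (adjusted p = 1.60e-04). Cdo1 stood at 0.821 and 1.02 RPKM in subconfluent cells and at 9.48 and 11.8 at the last stage. Lancl2 was lower, at -1.18 (adjusted p = 5.92e-04). Of 17 enzymes that produce NADPH, 1 was higher and 7 were lower (median -0.74). Glucose-6-phosphate dehydrogenase G6pdx, at -1.45 (adjusted p = 7.65e-05), and phosphogluconate dehydrogenase Pgd, at -1.25 (adjusted p = 7.73e-05), both of the pentose phosphate pathway, fell, as did the malic enzyme Me2, at -1.63 (adjusted p = 2.18e-05), and the cytosolic isocitrate dehydrogenase Idh1, at -1.33 (adjusted p = 1.94e-05).

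Of 21 tested other thiol oxidoreductases and peroxidases, 1 was called higher and 3 were lower (median -0.31). Txnip, which binds and inhibits thioredoxin, fell along with Txn1, at -2.28 (adjusted p = 7.26e-06), and so did Txnl1, at -1.21 (adjusted p = 8.72e-05), and the matrix peroxidase Pxdn, at -1.18 (adjusted p = 0.00496). Sesn1, a sestrin induced by p53 and FOXO factors, rose, at 1.36 (adjusted p = 3.37e-05). Of 17 tested other glutathione transferases and related membrane proteins, 7 were higher and 0 lower (median 0.78). Gstt3, at 1.72 (adjusted p = 7.76e-05), is of the same class as Gstt1, which was at -0.69 (adjusted p = 0.0181), and Gstm5, at 1.16 (adjusted p = 7.71e-04), was higher as Gstm1 was.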

How the data were processed

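Paired-end RNA-seq (51-base reads) of 10 MC3T3-E1 samples was used. The authors deposited raw counts per Ensembl gene, with lane columns for 2 libraries, and RPKM values normalised by gene length and mapped reads. Per the labels' processing notes, FastQC, TopHat2 2.0.9, R 3.0.1 and the mm10 build were used. The counting tool and its strand setting are not given in the sources used here. Symbols were matched for 39547 of 40620 identifiers, and overlaps came from GENCODE on GRCm38. Counts were filtered with filterByExpr over the 5 stages, scaled by TMM and fitted as 5 groups in edgeR 4.0.16 (R 4.3.3), with limma 3.58.1 and DESeq2 1.42.0 as alternatives. SE is the log2 fold change over the square root of F. On simulated counts for 14 d against confluent, 135 of 200 changed genes among 20808 were recovered, 86 of 100 at 4-fold or more, with 2.88% of calls false. Recovery in the other comparisons, and for the listed genes alone, was not tested. Every gene of the list was reported. Genes of other lists were named by the 4 largest changes among those called at 21 d against subconfluent, with a mean CPM of at least 5 and groups that did not overlap. The genes and lists were chosen with earlier results of these data known.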

Additional observations from a re-analysis of the deposited data

How the results depend on the processing

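Of 57 combinations of gene and comparison carried through the alternatives, 1152 values kept direction and side of the threshold, 60 kept direction but lost the call, 19 gained it and 7 changed sign. The sign changes were all in genes without a call at 21 d against subconfluent cells: Gstp1 (0.118 with upper-quartile factors and 0.0465 with at least 10 counts in every sample), Txn2 (-0.0403 with library size alone) and, when single samples were left out, Gsta4 (-0.998 to 0.0438), Gstp1 (-0.0823 to 0.00540) and Txn2 (-0.00802 to 0.195). The number of genes called moved with the fold asked for: at any fold and at more than 4-fold it was 24 and 3 at 21 d against subconfluent, 17 and 3 at 14 d against confluent, 5 and 0 at confluent against subconfluent, 8 and 1 at 24 h against confluent, 17 and 1 at 14 d against 24 h, and 5 and 0 at 21 d against 14 d. With only the 2 groups compared in the fit, 0 genes were called at 24 h against confluent and 0 at 14 d against 24 h, the 2 comparisons that use the 24 h pair, while the counts of the other 4 did not change; the cause was not tested. At 14 d against 24 h, 3 were called without a filter, 3 with at least 10 counts in every sample and 2 by limma on log2(RPKM + 1), and 1 to 9 with single samples left out. At 21 d against 14 d, 1 was called with at least 10 counts in every sample and 1 by limma on log2(RPKM + 1), and 1 to 2 with samples left out. The median of the 37 genes at 21 d against subconfluent was -0.38 and became -0.25 with upper-quartile factors, -0.54 with library size alone, -0.32 with at least 10 counts, -0.27 with the sum of 2 lanes, -0.49 by limma on log2(RPKM + 0.1), and -0.40 to -0.25 with samples left out. At 14 d against confluent it was -0.26 and became -0.48 with library size alone, -0.44 and -0.45 by limma on log2(RPKM + 1) and log2(RPKM + 0.1), and -0.43 to -0.23 with samples left out. The causes of these shifts were not tested.

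Library size alone moved the median of all genes from 0.04 to -0.12 at 21 d against subconfluent and from 0.03 to -0.20 at 14 d against confluent, and the share of higher genes among all calls from 59.1% to 48.9% and from 70.4% to 49.8%. With the replicate block, which takes the letters A and B as pairs, 11, 10, 0, 2, 5 and 2 genes were called in the 6 comparisons in the order given above and 22 over the 5 stages. Correlations of the A to B differences between stages were -0.18 to 0.10. With 1 pair per stage they cannot show whether the letters mark a shared culture or batch. Depth limits Gpx3, Gsta4 and Mgst1, and 2 replicates per stage limit every comparison.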

Other observations

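Among 24 tested other selenoproteins and genes of selenocysteine incorporation, 1 was called higher and 2 lower at 21 d against subconfluent cells by edgeR's quasi-likelihood test, where 16.3% and 11.3% of all genes were, with a median log2 fold change of -0.18. Lrp8, a surface receptor through which cells take up the selenium carrier encoded by Selenop, was lower at -3.98 (adjusted p = 5.77e-05) on the log2 scale, opposite in direction to Selenop. The levels behind the fold change of Lrp8 are not given here. Selenoh, a nucleolar selenoprotein, was lower at -1.85 (adjusted p = 4.59e-04), and Selenom, of the endoplasmic reticulum, was higher at 1.02 (adjusted p = 0.00864).

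Of 26 tested enzymes that produce reactive oxygen, 7 were called higher and 1 lower in the same comparison (median log2 fold change 0.54). Ncf1, the cytosolic organizer of the phagocyte NADPH oxidase, had the largest difference, at 6.60 (adjusted p = 1.64e-06), and Xdh, xanthine dehydrogenase, was at 2.71 (adjusted p = 1.65e-05). No level is given here for Ncf1. Whether its fold change rests on low counts in subconfluent cells was not tested. Nox4, a hydrogen peroxide-producing NADPH oxidase, was lower, at -1.33 (adjusted p = 0.00132), and Loxl4, a lysyl oxidase that releases hydrogen peroxide as it crosslinks collagen, was higher, at 1.10 (adjusted p = 0.0196).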
